A study of Mus musculus with 4 samples.

Results

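Forkhead genes encode transcription factors and were chosen here by symbol: every protein-coding gene named Fox, a letter from a to s and a number was taken, which gave 44 of the 43346 gene entries measured. RNA was sequenced from 4 outgrowths of the embryonic mouse face, with 1 library for each: the lateral nasal process (LNP), the medial nasal process (MNP), the maxillary process (Mx) and the mandibular process (Md). All 4 came from wild-type embryos at stage e11.5, and each library holds the mixed cell types of freshly dissected tissue. The strain and the number of embryos behind a library are not stated in the sources used here, and the tissue label of the MNP library carries the abbreviation LNP in brackets although its title names the medial nasal process. The nasal processes build the nose and the middle of the upper lip, the maxillary process builds most of the upper jaw, and the mandibular process builds the lower jaw, the last pair being parts of the first pharyngeal arch.

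Forkhead proteins bind DNA through a shared winged-helix domain, and their letters name subclasses of related sequence. Some act in nearly every cell, as the FoxO proteins do downstream of insulin signalling, while others mark a place or a lineage, as FoxF proteins do in the mesenchyme beside the gut tube. In the mouse face, Foxc2, Foxd1, Foxd2, Foxf1 and Foxf2 are known as genes of the neural crest mesenchyme that need hedgehog signalling, and loss of Foxf2 in the mouse, or of FOXE1 in humans, causes cleft palate.

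The 4 libraries held 13216161 to 16163874 estimated counts, of which 13814 to 14852 fell on forkhead genes. Differences between processes are given in CPM, counts per library scaled to 1000000 counts after a correction for composition, and levels are compared between genes in TPM, which takes gene length into account. With 1 library per process there are no replicates, so no p-value is given, and 95% intervals are given for counting error alone. A count of 0 was taken to allow up to 3 counts, a level of 0.185 to 0.223 CPM. Markers of cranial mesenchyme were abundant in all libraries, with 7 genes summing to 2992 to 3756 CPM, and 12 epithelial genes summed to 274 to 451 CPM. Fewer cells of a type and less RNA per cell cannot be told apart in such bulk samples. Foxf1, Foxf2, Foxd1 and Foxc2, the forkhead genes taken as markers of the group in the face, were all detected in every library, with 43 counts or more each.

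Of the 44 forkhead genes, 20 reached 5 CPM in at least 1 library, 12 peaked between 1 and 5 CPM, 11 stayed under 1 CPM and Foxi1, a gene of the inner ear, had no count. Summed over all members, forkhead TPM came to 289 in Md, 284 in MNP, 228 in Mx and 224 in LNP. The 4 members of subclass P alone made up 31.0 to 32.9% of it. Subclasses J, K, M, N, O and P together held 90.6% in LNP, 81.5% in MNP, 89.9% in Mx and 84.3% in Md. Subclasses C, D and F held 7.89% in LNP, 16.7% in MNP, 7.27% in Mx and 13.5% in Md. Most forkhead TPM in each process thus belonged to subclasses J, K, M, N, O and P, called broad below. The share of C, D and F, which with L are called regional below, was larger in MNP and Md than in LNP and Mx. These names were given after the levels were seen, so the larger share is not a separate result.

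Of the 10 subclasses with a member at 5 CPM, 4 had a summed TPM at least 2-fold apart between the highest and the lowest process. Subclass F ranged 8.54-fold, with 2.37 TPM in LNP, against 14.0 TPM in MNP, 9.17 TPM in Mx and 20.2 TPM in Md. Subclass C ranged 5.62-fold, with 3.12 TPM in Mx, against 11.7 TPM in LNP, 17.5 TPM in MNP and 6.77 TPM in Md. Subclass D ranged 4.53-fold, with 16 TPM in MNP and 12.1 TPM in Md, against 3.53 TPM in LNP and 4.30 TPM in Mx. The 3 subclasses thus had 3 different orders over the processes, with FoxF lowest in LNP, FoxC lowest in Mx and FoxD low in both. Subclass L ranged 2.43-fold and had its top in Mx at 4.18 TPM. In summed CPM, which weights its members differently, subclass L was highest in Md, at 6.98 CPM against 6.78 CPM in Mx. The other 6 subclasses differed by 1.11-fold for FoxK to 1.59-fold for FoxJ.

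**Figure D1:**
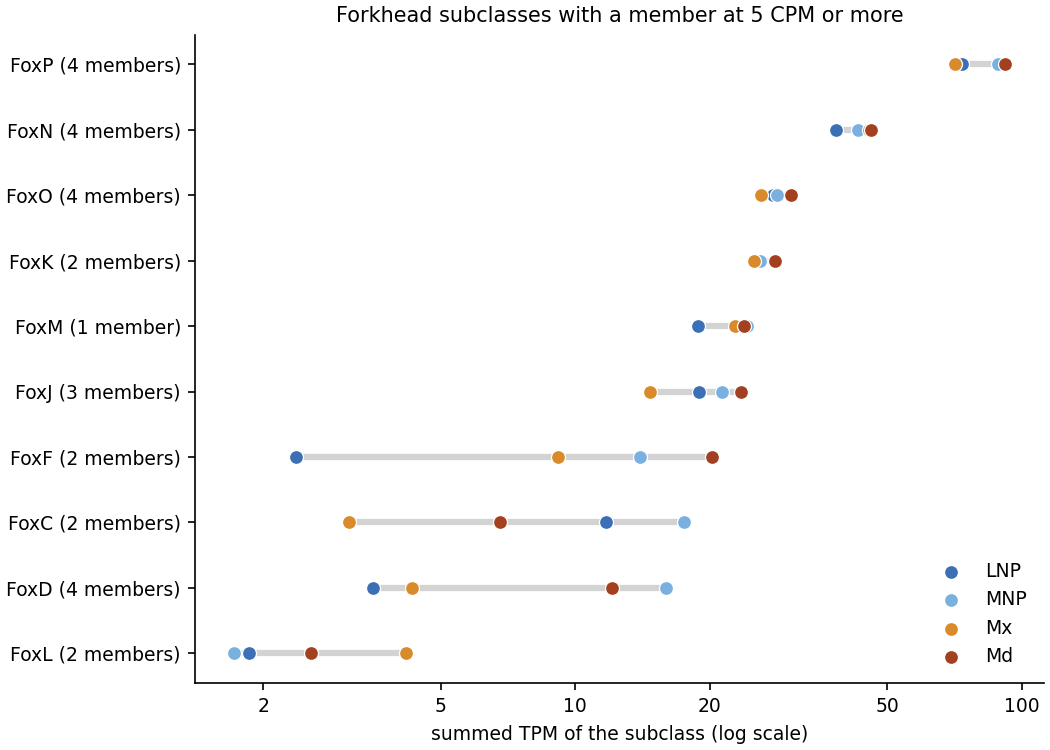
Summed TPM (log scale) of the 10 forkhead subclasses with a member at 5 CPM or more, with 1 point for each facial process and a grey bar over their range. FoxF, FoxC, FoxD and FoxL spread over 2.43- to 8.54-fold, while the 6 other subclasses stay within 1.59-fold.

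To count differences, a gene was called higher on 1 side of a comparison when each library of that side had 5 CPM or more and lay at least 2-fold above each library of the other side, after adding 0.5 CPM to every level. For the ratio of the highest to the lowest library, 7 of the 20 forkhead genes reached 2-fold, where 9.69% of all 12406 genes at 5 CPM did. They were Foxc1, Foxc2, Foxd1, Foxd2, Foxf1, Foxf2 and Foxl1. The median ratio was 1.57 over the 20 forkhead genes and 1.27 over all genes. The 7 genes had ratios of 3.83 to 8.18 on this scale, and the other 13, all of subclasses J, K, M, N, O and P, had ratios of 1.10 to 1.94. No forkhead gene lay between 1.94 and 3.83, and the regional and the broad group were named after these values were seen.

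**Figure D2:**
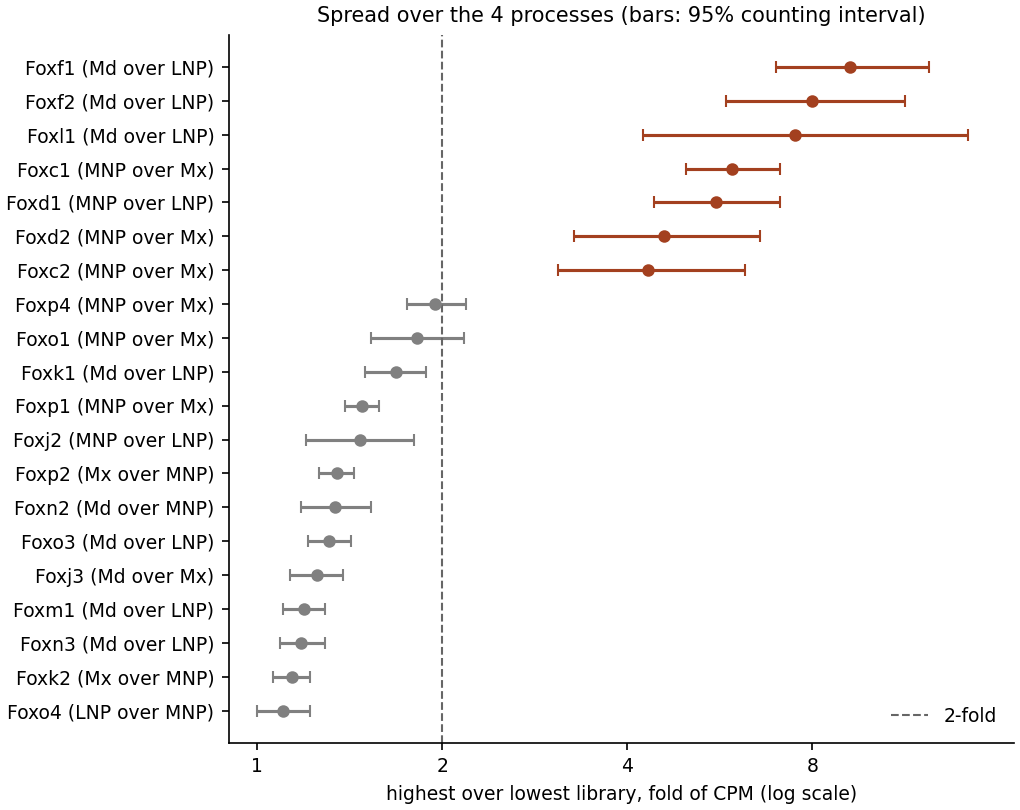
Fold of CPM between the highest and the lowest library (log axis) for the 20 forkhead genes at 5 CPM or more, with the 95% counting interval and, in brackets, the processes compared. The 7 genes of subclasses C, D, F and L lie above the dashed 2-fold line with their whole interval, and the 13 others have values below it.

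The FoxF genes were low in LNP. Foxf1, which is needed for gut and lung mesenchyme and lies on the plus strand of chromosome 8 from 121084386 to 121088144 (GRCm38), stood at 3.51 CPM in LNP, against 24.2 CPM in MNP, 14.2 CPM in Mx and 32.3 CPM in Md. Foxf2, the palate gene on the plus strand of chromosome 13 from 31625816 to 31631403, stood at 2.65 CPM in LNP, against 12.6 CPM in MNP, 10.7 CPM in Mx and 21.2 CPM in Md. LNP was the lowest and Md the highest library for both genes. The lowest of the other 3 libraries was Mx in both cases, 4.04-fold above LNP for Foxf1 (interval 3.0 to 5.51) and 4.06-fold for Foxf2 (2.88 to 5.82). These 2 of 20 forkhead genes were the ones called lower in LNP than in each other process, a call made for 0.121% of all genes (15 of 12406). MNP and Mx were 1.18-fold apart for Foxf2, with an interval of 0.944 to 1.47 that includes no difference, and 1.71-fold apart for Foxf1 (1.44 to 2.04). Per length, Foxf1 was the more abundant of the pair in every process, with a TPM ratio of Foxf1 to Foxf2 of 1.29 to 1.87.

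The FoxD genes separated MNP and Md from LNP and Mx. Foxd1, a gene of kidney stroma and of the temporal retina that lies on the plus strand of chromosome 13 from 98354242 to 98359305, reached 30.5 CPM in MNP and 22.2 CPM in Md, against 5.48 CPM in LNP and 5.93 CPM in Mx. Foxd2, its paralogue on the minus strand of chromosome 4 from 114906282 to 114908873, reached 13 CPM in MNP and 10.4 CPM in Md, against 3.75 CPM in LNP and 2.83 CPM in Mx. For both genes the pairs of libraries did not overlap. The gap between the lower of MNP and Md and the higher of LNP and Mx was 3.74-fold for Foxd1 (interval 2.95 to 4.79) and 2.77-fold for Foxd2 (2.04 to 3.80). Such a separation was called for 0.105% of all genes (13 of 12406), and Foxd1 and Foxd2 were 2 of these 13. Within the low pair, Mx and LNP differed by 1.08-fold for Foxd1 (interval 0.798 to 1.47), and LNP and Mx by 1.33-fold for Foxd2 (0.883 to 2.01), neither beyond counting error. The TPM ratio of Foxd1 to Foxd2 was 1.54 in LNP and 2.21 to 2.48 in the other 3 processes.

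6 cartilage genes, 5 of them with counts, also had larger sums in MNP and Md, at 752 and 549 CPM, against 360 CPM in LNP and 375 CPM in Mx. Col2a1 was the largest part, with 406 CPM in MNP and 252 CPM in Md, against 150 CPM in LNP and 165 CPM in Mx. Acan, Col9a1 and Col11a1 were also higher in MNP and Md, Col11a1 by little (126 to 167 CPM). Sox9 was not, with 31.8 CPM in Md against 40.7 CPM in LNP, and Matn1 had 0 counts in all 4 libraries. Of 5 pericyte genes, Rgs5 was itself called higher in MNP and Md, with 7.83 and 7.65 CPM, against 3.39 CPM in LNP and 2.63 CPM in Mx, and Kcnj8 had 50 counts in Md, against 2 in LNP, 6 in MNP and 1 in Mx. The pericyte sum was 220 CPM in MNP and 186 CPM in Md, against 173 CPM in LNP and 179 CPM in Mx. Pdgfrb made up most of it and was lowest in Md, with 149 CPM, against 153 CPM in LNP, 190 CPM in MNP and 162 CPM in Mx. Abcc9 and Cspg4 were, like Rgs5, higher in MNP and Md than in LNP and Mx. 8 endothelial genes were even, at 270 to 311 CPM. The part of these cell types in the FoxD and FoxF levels was not tested.

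The FoxC genes, which are needed for the skull, the eye and blood vessels, did not share a pattern. Foxc1, on the plus strand of chromosome 13 from 31806633 to 31812476, had 42.5 CPM in LNP and 60.5 CPM in MNP, against 10.2 CPM in Mx and 15 CPM in Md. It was the 1 of 20 forkhead genes called higher in both nasal processes, a call made for 0.919% of all genes, and the gap between LNP and Md was 2.84-fold (interval 2.42 to 3.33). Foxc2, on the plus strand of chromosome 8 from 121116171 to 121118895, stood at 2.83 CPM in Mx, against 6.22 CPM in LNP, 12.3 CPM in MNP and 10.4 CPM in Md. It was the 1 forkhead gene called lower in Mx than in each other process, with LNP 2.19-fold above Mx (1.52 to 3.21), where 0.0887% of all genes were called. MNP and Md were 1.18-fold apart for Foxc2 (0.937 to 1.49), which is within counting error. The call lower in Mx was lost with a pseudocount of 2 CPM, with TPM, with a minimum of 20 CPM and with a 3-fold threshold.

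Both FoxC genes had their highest level in MNP and their lowest in Mx, but Md lay near MNP for Foxc2, while for Foxc1 it was 1.47-fold above Mx (interval 1.19 to 1.82) and far below the nasal pair. The TPM ratio of Foxc1 to Foxc2 was 4.62 in LNP, 3.33 in MNP, 2.43 in Mx and 0.974 in Md. It varied 4.74-fold over the processes, while the ratios of 9 other chosen pairs within a subclass varied 1.29- to 1.95-fold. Not every pair was taken, and some left out varied more than these 9. Foxp2 and Foxp4 had 136 and 32.1 CPM in Mx, against 101 and 62.8 CPM in MNP. Foxl1 and Foxl2 had 6.46 and 0.520 CPM in Md, against 0.862 and 1.97 CPM in LNP, a wider change than that of the FoxC pair. The FoxC pair was thus not the most divergent within a subclass. Foxc1 and Foxc2 share 4 stretches of 50 bases, the read length, of 5795 in the Foxc1 transcripts, so few reads could be divided between them.

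Foxl1, a gene of the gut mesenchyme on chromosome 8 from 121127940 to 121130644, stood at 6.46 CPM in Md, 3.62 CPM in MNP, 2.24 CPM in Mx and 0.862 CPM in LNP. Its order over the processes was that of Foxf1. Md was 2.88-fold above Mx (interval 1.92 to 4.42), and MNP 4.20-fold above LNP (2.28 to 8.24), though MNP did not reach the 5 CPM a call needs. Its count was also the only uncertain one among the 44, since its posterior mean count in LNP was at least 10% away from the expected count. Its call in Md over Mx was lost when such genes were left out and with a pseudocount of 2 CPM. It was also lost with TPM, with a minimum of 20 CPM and with a 3-fold threshold.

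**Figure D3:**
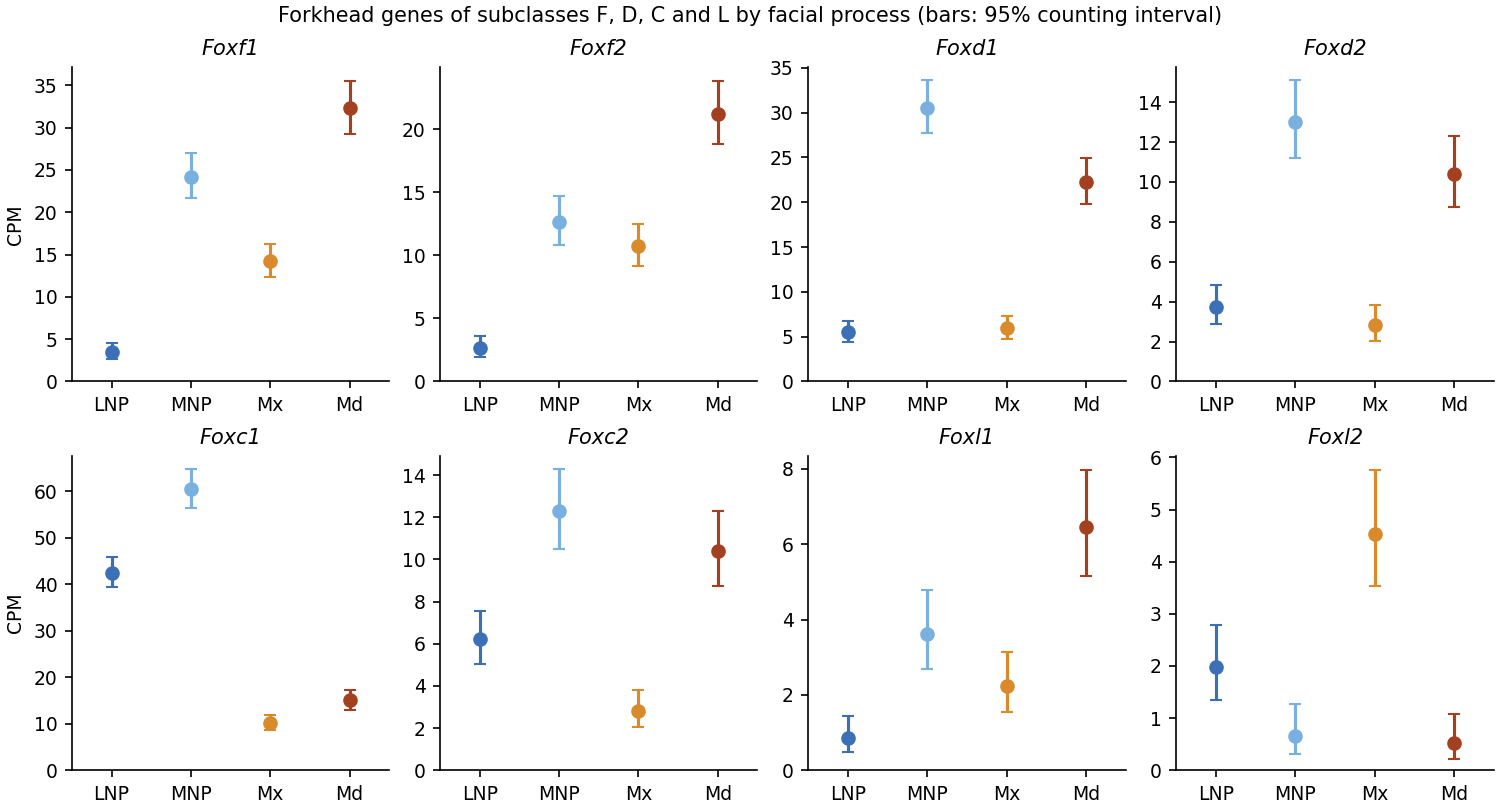
CPM in each process, with 95% counting intervals, for the 7 regional forkhead genes at 5 CPM or more and for Foxl2, each panel with its own axis from 0. Foxf1, Foxf2 and Foxl1 are lowest in LNP, Foxd1 and Foxd2 are low in LNP and Mx, Foxc1 is high in LNP and MNP, Foxc2 is lowest in Mx, and Foxl2 is highest in Mx.

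Calls were also counted within the nasal pair and within the first arch pair of processes. In MNP over LNP, 4 of 20 forkhead genes were called, where 2.01% of all genes were: Foxf1 at 6.91-fold (interval 5.20 to 9.32), Foxd1 at 5.57-fold (4.42 to 7.09), Foxf2 at 4.78-fold (3.40 to 6.84) and Foxd2 at 3.46-fold (2.58 to 4.72). No forkhead gene was called higher in LNP than in MNP, where 0.605% of all genes were. In Md over Mx, 5 of 20 were called, where 1.77% of all genes were: Foxd1 at 3.74-fold (2.95 to 4.79), Foxc2 at 3.67-fold (2.59 to 5.29), Foxd2 at 3.67-fold (2.59 to 5.29), Foxl1 at 2.88-fold and Foxf1 at 2.28-fold (1.93 to 2.70). Foxf2 lay just short of the rule there, at 1.97-fold (1.62 to 2.40). No forkhead gene was called higher in Mx than in Md, where 0.871% of all genes were.

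In all, 3 of 20 forkhead genes (Foxf1, Foxf2 and Foxc2) were called higher or lower in a single process, where 2.81% of all genes were, and these 3 were lower. No forkhead gene at 5 CPM was called higher in a single process than in each other one. Among all genes, 0.226% were called so in LNP, 1.0% in MNP, 0.202% in Mx and 0.846% in Md, so for 20 genes a count of 0 is near the background. None was called lower in MNP or Md alone, where 0.129% and 0.274% of all genes were. None was called higher in both first arch processes than in both nasal ones, against 0.266% of all genes. The 3 remaining ways to split the libraries into pairs held no forkhead gene either, with LNP and Mx over MNP and Md at 0.0564%, LNP and Md over MNP and Mx at 0.0161% and MNP and Mx over LNP and Md at 0.0242% of all genes.

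The mean log2 level in MNP and Md was above that in LNP and Mx for 17 of the 20 forkhead genes, with a median difference of 0.48, while 44.7% of all genes at 5 CPM were above, with a median of -0.03. All 7 regional members were above, at 0.52 for Foxc1 to 2.10 for Foxd1. Between the nasal and the first arch processes, 8 of the 20 were higher in the nasal ones, with a median difference of -0.08, and 44.2% of all genes, with a median of -0.02. Foxc1 had the largest nasal difference, at 1.99, and Foxf2 (-1.28), Foxf1 (-1.14) and Foxl1 (-0.88) the largest in the other direction. Foxl1 passed 5 CPM only in Md and Foxd2 only in MNP and Md, the processes where they were high, and Foxl2, which stayed under 5 CPM, had a difference of -1.70, so the shared sign of the 7 is not read as a result.

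**Figure D4:**
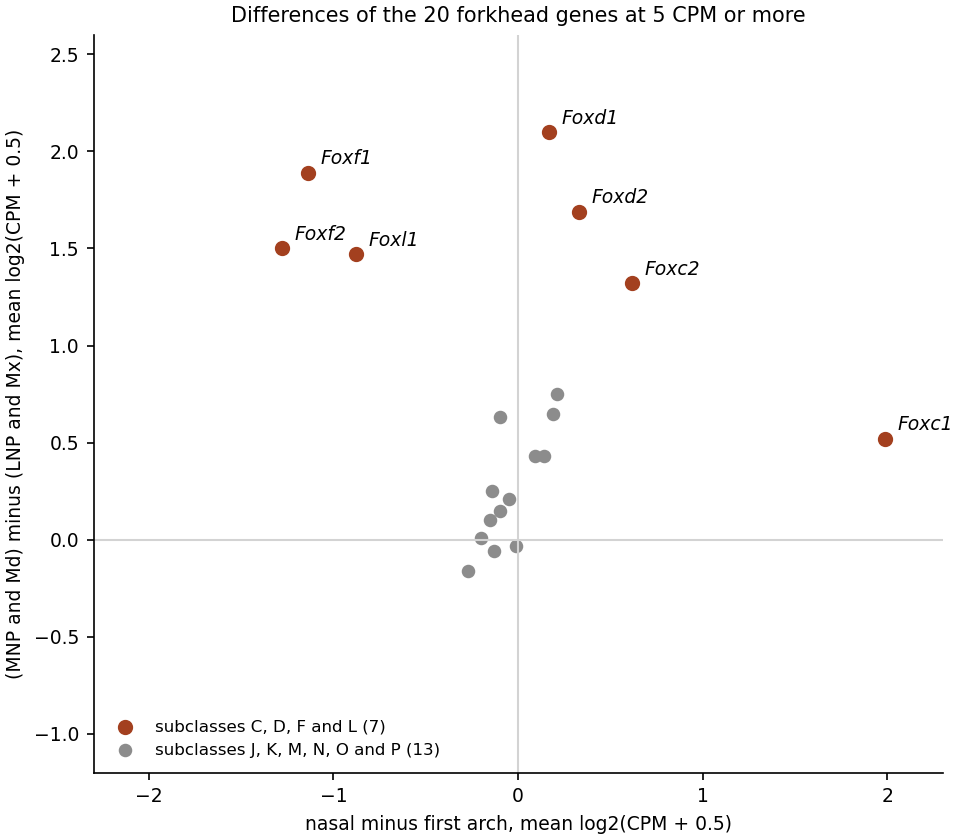
Difference of mean log2(CPM + 0.5) between the nasal and the first arch processes (horizontal) and between MNP with Md and LNP with Mx (vertical) for the 20 forkhead genes at 5 CPM or more, regional members in red. All 7 regional members lie above 0 on the vertical axis, with Foxf1, Foxf2 and Foxl1 on the left and Foxc1 far to the right.

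Promoter sequences are shown for the pair that moved together, Foxd1 and Foxd2, and for Foxf2 and Foxc1, which are neighbours on chromosome 13 and had different patterns. They are the bases just before the annotated start in RefSeq (GRCm38.p6), at chr13:98353995-98354241 on the plus strand, chr4:114908899-114909148 on the minus strand, chr13:31625566-31625815 on the plus strand and chr13:31806396-31806632 on the plus strand. Capitals mark a CCAAT box, the letters CCAAT on either strand, so that ATTGG is a match on the other strand.
Foxd1: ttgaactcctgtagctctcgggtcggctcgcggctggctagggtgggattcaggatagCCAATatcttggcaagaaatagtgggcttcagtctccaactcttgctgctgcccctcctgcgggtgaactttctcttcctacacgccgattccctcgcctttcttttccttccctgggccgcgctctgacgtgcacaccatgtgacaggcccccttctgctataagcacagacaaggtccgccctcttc
Foxd2: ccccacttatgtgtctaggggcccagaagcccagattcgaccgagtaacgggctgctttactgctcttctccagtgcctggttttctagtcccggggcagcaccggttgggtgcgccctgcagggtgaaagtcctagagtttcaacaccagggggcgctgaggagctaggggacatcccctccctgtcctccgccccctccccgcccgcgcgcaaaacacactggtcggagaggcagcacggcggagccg
Foxf2: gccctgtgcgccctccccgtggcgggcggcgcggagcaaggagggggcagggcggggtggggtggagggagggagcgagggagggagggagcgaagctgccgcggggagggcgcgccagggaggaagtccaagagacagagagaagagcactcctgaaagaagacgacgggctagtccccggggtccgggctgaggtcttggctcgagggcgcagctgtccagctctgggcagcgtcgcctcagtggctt
Foxc1: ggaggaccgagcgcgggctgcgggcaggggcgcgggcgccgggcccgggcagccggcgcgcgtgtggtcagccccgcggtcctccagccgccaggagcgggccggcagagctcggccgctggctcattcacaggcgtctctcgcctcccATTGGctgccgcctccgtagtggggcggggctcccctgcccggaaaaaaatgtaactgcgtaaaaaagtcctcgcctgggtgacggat
A CCAAT box was found in the promoters of Foxd1 and Foxc1 and in neither of the others, so the FoxD pair did not share it. The RefSeq table held 33 promoters of 28 forkhead genes. Counted over the whole 250 bases before each start, also for members shown shorter, 14 of the 33 had a CCAAT box, which 33.8% of all 32851 promoters had, and 23 had GGGCGG on either strand, the letters bound by Sp1, which 32.7% of all promoters had. TATAAA on either strand was in 3 of 33 and in 12.4% of all. TGTTTAC, the core letters forkhead proteins bind, were in 1 of 33 on either strand, that of Foxa1, and in 3.17% of all, and TGGGTGGTC, letters bound by GLI proteins, in 0 of 33 and in 0.225% of all. None of these 5 strings contains another. Forkhead promoters were rich in CpG, with a median of 16 in those 250 bases against 6 over all promoters, and a median observed over expected ratio of 0.70 against 0.37.

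Several forkhead genes lie close to each other. On chromosome 13, Foxq1, Foxf2 and Foxc1 lie within 256 kb on 1 strand. Foxq1, known for its role in hair, had 1 count (0.0615 CPM) in LNP, 13 (0.961 CPM) in MNP, 5 (0.329 CPM) in Mx and 15 (1.11 CPM) in Md. LNP was lowest as for Foxf2 and not for Foxc1. The interval of Mx over LNP, 0.599 to 253, includes no difference. On chromosome 8, Foxf1, Foxc2 and Foxl1 lie within 46.3 kb on 1 strand, and Foxf1 and Foxl1 at its ends were lowest in LNP, while Foxc2 between them was lowest in Mx. On chromosome 4, Foxd2 lies within 19.7 kb of Foxe3, a lens gene that had 1 count in LNP, 1 in Mx and 0 in the others. In the runs on chromosomes 13 and 8, the FoxC gene was thus lowest in Mx and the other members were lowest in LNP. For the run on chromosome 4, the counts of Foxe3 are too low to compare the processes.

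Noncoding genes beside the regional members were measured as well. Fendrr, a long noncoding RNA gene that runs from the opposite strand 1275 bases from Foxf1, stood at 6.43 CPM in MNP and 8.24 CPM in Md, against 0.800 CPM in LNP and 2.17 CPM in Mx. Its order over the processes was that of Foxf1, and it was itself 1 of the 13 genes called higher in MNP and Md, with a gap of 2.96-fold (interval 1.96 to 4.56). Foxd2os, 383 bases from Foxd2 on the opposite strand, had 7.83 CPM in MNP and 7.20 CPM in Md, against 3.69 CPM in LNP and 2.24 CPM in Mx, the order of Foxd2. Its gap was 1.95-fold (1.4 to 2.74) and just missed the rule. 1700018A04Rik, which starts 23 bases from Foxf2 on the opposite strand, had 2.38 CPM in Md, 0.739 CPM in MNP, 0.198 CPM in Mx and 0.123 CPM in LNP, again the order of its neighbour, though on few counts. Mthfsd, a coding gene between Foxf1 and Foxc2, was even, with 25.5 to 30.2 CPM.

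Foxl2, known for the ovary and the eyelids, and Foxl2os, which meets it head to head on the opposite strand with an overlap of 12 bases, had the reverse of the FoxD pattern. Foxl2 had 69 counts (4.54 CPM) in Mx and 32 (1.97 CPM) in LNP, against 9 (0.665 CPM) in MNP and 7 (0.520 CPM) in Md, and so stayed under 5 CPM. Mx was 2.31-fold above LNP (interval 1.50 to 3.63), and LNP 2.96-fold above MNP (1.38 to 7.05). Foxl2os was higher, with 29.8 CPM in Mx and 11.0 CPM in LNP, against 2.14 CPM in MNP and 1.63 CPM in Md, and it passed the rule both for Mx alone (2.70-fold over LNP, 2.27 to 3.23) and for LNP and Mx together (5.14-fold over MNP, 3.46 to 7.90). The 7 genes of the eye list, crystallin and pigment genes among them, summed to 40.5 CPM in LNP and 18.0 CPM in Mx, against 7.76 CPM in MNP and 6.01 CPM in Md. Their part in the Foxl2 level was not tested. Gm20388, a gene model on the plus strand of chromosome 8 from 119910841 to 124345722, which spans Foxf1, Foxc2, Foxl1 and many other genes, also had this pattern, with 32.8 CPM in LNP and 53.5 CPM in Mx, against 15.9 CPM in MNP and 13.7 CPM in Md.

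**Figure D5:**
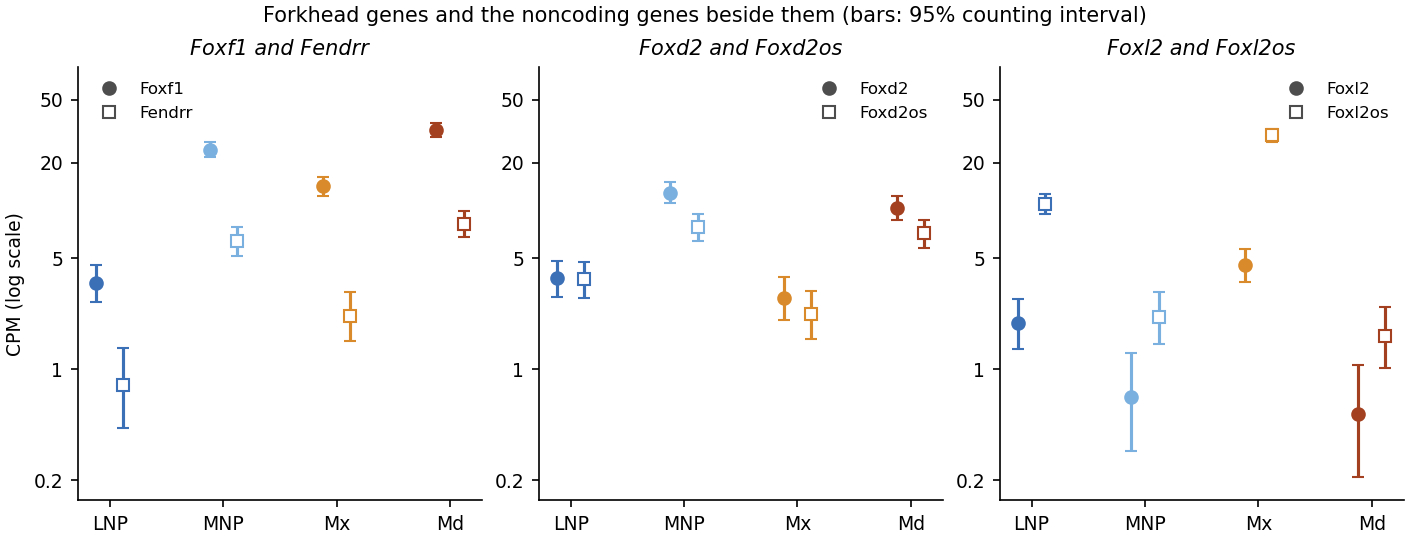
CPM (log axis) in each process, with 95% counting intervals, for 3 forkhead genes (filled circles) and the noncoding genes beside them (open squares). Fendrr and Foxd2os follow Foxf1 and Foxd2 in order, both higher in MNP and Md than in LNP and Mx, and Foxl2 and Foxl2os are higher in LNP and Mx.

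The broad members were led by subclass P, a group of repressors that bind DNA as dimers. Foxp1 had 139 CPM in LNP, 174 CPM in MNP, 118 CPM in Mx and 170 CPM in Md. Foxp2, known for its part in human speech, had 103, 101, 136 and 111 CPM in the same order, and Foxp4 had 40.5, 62.8, 32.1 and 59.0 CPM. Foxp1 and Foxp4 were lowest in Mx and higher in MNP and Md, while Foxp2 was highest in Mx. Foxp4 came closest to the rule among the broad members, with Md 1.84-fold above Mx (interval 1.64 to 2.06). The TPM ratio of Foxp1 to Foxp2 fell to 1.22 in Mx, against 1.96 in LNP, 2.38 in MNP and 2.19 in Md.

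The FoxO genes, targets of insulin and AKT signalling, were Foxo3 at 69.7 to 91.4 CPM, Foxo4 at 51.3 to 56.6 CPM and Foxo1 at 13.8 to 25.1 CPM. Foxo1 differed most, with 25.1 CPM in MNP and 23.2 CPM in Md, against 16.8 CPM in LNP and 13.8 CPM in Mx, and Foxo4 differed least of all 20, by 1.10-fold (interval 0.999 to 1.22). Foxo6 had 0.594 to 2.07 CPM. All 17 genes listed as input to FoxO activity reached 5 CPM, and 1 passed a pairwise or single-process rule: Sgk1, a kinase that phosphorylates FoxO proteins, with 40.8 CPM in Mx against 16.3 CPM in Md (2.50-fold, 2.14 to 2.93).

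Foxk1 had 32.4 CPM in LNP, 51.1 CPM in MNP, 35.3 CPM in Mx and 54.3 CPM in Md, while its paralogue Foxk2 was flat at 105 to 120 CPM. The TPM ratio of Foxk2 to Foxk1 was accordingly 3.39 in MNP and 3.44 in Md, against 5.58 in LNP and 5.31 in Mx. Foxn3 had 70.8 to 83.9 CPM, Foxn2 29.3 to 39.3 CPM, Foxj3 51.6 to 64.4 CPM and Foxj2 11.0 to 16.1 CPM. Foxm1, which drives the genes of mitosis, had 72.6 CPM in LNP, 83.2 CPM in MNP, 85.8 CPM in Mx and 86.5 CPM in Md. None of 12 genes known as FoxM1 targets passed a rule, and their sum was 1395 to 1660 CPM, highest in Mx. By mean log2 level, 10 of the 13 broad members were higher in MNP and Md than in LNP and Mx, where 44.7% of all genes at 5 CPM were. These differences were all less than 2-fold, from 0.01 for Foxn2 to 0.75 for Foxp4 on the log2 scale. The median over the 13 was 0.21.

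Of the 12 members between 1 and 5 CPM, some had counts in few processes. Foxe1, the thyroid and palate gene, had 4.97 CPM in Md, just under the 5 CPM needed, 3.10 CPM in Mx, 1.85 CPM in MNP and 0.554 CPM in LNP. LNP was again the lowest, and Md was 8.98-fold above it (interval 4.46 to 20.5). Foxd3, a gene of early neural crest and its glial derivatives, did not follow Foxd1 and Foxd2, with 48 counts (3.16 CPM) in Mx against 6 in LNP, 8 in MNP and 11 in Md. The 5 other genes of the Schwann cell precursor list summed to 65.1 CPM in Mx, against 57.1 CPM in LNP, 89.5 CPM in MNP and 59.9 CPM in Md.

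The FoxA genes of endoderm and floor plate were found mainly in Md, with 30 counts (2.23 CPM) of Foxa1 and 22 (1.63 CPM) of Foxa2. Foxa1 had 3 counts in LNP, 10 in MNP and 1 in Mx, and Foxa2 had 0 in LNP, 7 in MNP and 1 in Mx. The 4 second arch Hox genes, known to be off in first arch neural crest, summed to 9.35 CPM in Md, against 0.593 CPM in Mx and 0 in LNP and MNP, and Nkx2-3, another gene of pharyngeal endoderm, had 35 counts (2.6 CPM) in Md, against 0 in LNP, 1 in MNP and 3 in Mx. The 6 pharyngeal endoderm genes that are no forkhead genes summed to 54.9 CPM in Md, against 75.1 CPM in LNP, 93.9 CPM in MNP and 61.9 CPM in Mx, a sum carried by Pax9, with 35.4 CPM in Md, 59.4 CPM in LNP, 84.0 CPM in MNP and 32.3 CPM in Mx. Their part in the FoxA levels was not tested. Of the remaining members, Foxi3, a gene of ectodermal placodes, had 0.148 to 1.12 CPM with its peak in Mx. Foxj1, the regulator of motile cilia, had 0.371 to 1.48 CPM, with MNP 1.20-fold above LNP (interval 0.613 to 2.35). Foxp3, the regulatory T cell gene, had 0.677 to 1.25 CPM, with Mx 1.12-fold above Md (0.541 to 2.38). The highest process of Foxj1 and of Foxp3 was thus not set apart beyond counting error. Foxn4, a gene of neural and retinal progenitors, had 14 counts (1.03 CPM) in MNP, against 1 in LNP and 0 in Mx and Md. Among 8 forebrain neuroepithelium genes, MNP stood apart for Hes5, with 7.39 CPM against 0.223 to 0.554 CPM in the other 3 processes. For Sox1 it had 7.83 CPM against 0.263 to 0.739 CPM. Otx2, Lhx5, Nkx2-1 and Six3 were also highest in MNP, though Otx2 had 23.2 CPM there and 15.4 CPM in LNP. Emx2 was highest in Mx, with 14.1 CPM against 7.54 CPM in MNP, and Rax had 15 counts in LNP and 0 in MNP. The 8 genes of that list summed to 55.4 CPM in MNP, against 27.0 CPM in LNP, 16.5 CPM in Mx and 4.53 CPM in Md, and their part in levels that peak in MNP was not tested. Foxp3 shares 14.7% of its 50-base stretches with Flicr, a noncoding gene that overlaps it, so its level is uncertain.

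The 11 members under 1 CPM were Foxa3, Foxb1, Foxb2, Foxd4, Foxe3, Foxh1, Foxi2, Foxn1, Foxr1, Foxr2 and Foxs1. None had more than 5 counts in any library, and with Foxi1 they make up the 12 members whose counts are too low to compare the processes.

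Among 17 hedgehog pathway genes, 13 reached 5 CPM, and 2 passed a pairwise rule. Ptch1, a receptor and a direct target of the pathway, had 161 CPM in MNP against 76.6 CPM in LNP (2.11-fold, interval 1.97 to 2.26) and 237 CPM in Md against 146 CPM in Mx (1.62-fold, 1.54 to 1.71). Hhip, another target, had 6.90 CPM in Md against 2.50 CPM in Mx (2.76-fold, 1.87 to 4.14). Shh, the ligand, stayed under 5 CPM, with 4.43 CPM in MNP against 0.739 CPM in LNP (6.0-fold, 3.20 to 12.3) and 4.16 CPM in Md against 1.78 CPM in Mx (2.34-fold, 1.45 to 3.85). Ptch1 had the order of Foxf1 and Foxl1 over the 4 processes, with LNP lowest and Md highest. Gli1, also a target, did not have it, with 21.6 CPM in LNP, 37.0 CPM in MNP, 47.7 CPM in Mx and 48.1 CPM in Md. Over the 13 genes at 5 CPM, the median log2 difference of MNP and Md from LNP and Mx was 0.05, against -0.03 over all genes. Of 6 Tle co-repressor genes, whose proteins some forkhead factors bind, 5 reached 5 CPM and none passed a rule.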

How the data were processed

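The 4 libraries hold RNA of 1 facial process each. The authors made stranded total RNA libraries after ribosomal RNA removal and sequenced single-end reads of 50 bases. Reads were aligned to mm10 with STAR and quantified with RSEM 1.4.1 on GENCODE M4 annotations. The deposited expected counts and posterior mean counts are estimated counts without normalization, in which a read that fits several genes is shared out among them. The authors also deposited TPM, which is corrected for length, and a posterior standard deviation that was not used. The sources used here do not give the strand setting of the counting.

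Expected counts were rounded to whole numbers. Symbols, biotypes and coordinates came from GENCODE M21 (GRCm38) by gene ID, with a symbol for 42462 of 43346 entries. Entries for 96 spike-ins (0 counts) and 26248 entries named by a number (1 to 5 counts per library) were left out. CPM were computed with TMM factors of edgeR 4.0.16 (trimmed means of M values, 1.01, 1.02, 0.987 and 0.985 for LNP, MNP, Mx and Md). Folds carry exact (Clopper-Pearson) and single levels exact Poisson 95% intervals for counting error. Since no group has replicates, nothing was tested.

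Every member at 5 CPM in a library was named with its levels, members at 1 to 5 CPM with their levels or range, and the rest by name. The result of 1 member is not reported here. Genes of the hedgehog, Tle, FoxO and FoxM1 lists past a 2-fold rule were named too, and marker lists are given as sums. Genes within 10 kb of a member could be named. 1700018A04Rik, Mthfsd, Fendrr, Foxd2os, Foxl2os and Gm20388 were picked among the neighbours after their values were seen. So were Gli1, Shh, Nkx2-3 and Pax9 among the listed genes, and the genes given with values from the cartilage, pericyte and forebrain lists. The members, gene lists and comparisons were chosen with earlier results of these data known. Transcripts were compared by 50-base stretches: 38 of 44 members share none with another member, and 2 share 5% or more with any gene. Promoters are the 250 bases before the RefSeq start, shortened for members where the GENCODE start falls inside them. Alternatives were DESeq2 1.42.0 size factors, total counts, protein-coding genes alone, deposited TPM, other pseudocounts, minimum levels and folds, posterior mean counts, and removal of uncertain counts. Figures were drawn with matplotlib 3.10.9.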

Additional observations from a re-analysis of the deposited data

How the results depend on the processing

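No paired analysis was possible because each process has 1 library. The calls were recomputed under 12 alternatives, and their causes were not tested. With DESeq2 size factors, total counts, pseudocounts of 0.1 or 2 CPM, posterior mean counts, or uncertain counts removed, no count moved by over 1.5 times, but a pseudocount of 2 CPM ended the calls of Foxc2 (lower in Mx) and Foxl1 (Md over Mx), and removal of uncertain counts that of Foxl1. With protein-coding genes alone, Foxl2 passed 5 CPM in Mx and was called, giving 1 gene higher in a single process and 1 higher in Mx than in Md. With TPM, a minimum of 5 TPM left 1 gene lower in a single process (Foxf1), 1 higher in MNP and Md (Foxd1), 2 higher in MNP than LNP and 3 higher in Md than Mx, Foxp4 among them. A minimum of 20 CPM left 0, 1, 2 and 2. A 3-fold threshold left 0 genes higher in both nasal processes, since Foxc1 was lost, 2 lower in a single process, without Foxc2, 1 higher in MNP and Md, and 3 higher in Md than Mx. A minimum of 1 CPM gave 5 genes higher in a single process (Foxa1, Foxa2, Foxd3, Foxl2 and Foxn4), 5 lower, 2 higher in both nasal processes, 1 in the other pairings (Foxl2), 1 higher in LNP than MNP, 7 higher in MNP than LNP and 2 higher in Mx than Md. No minimum gave 5, 5, 2, 1, 1, 9 and 2. No log2 difference of 1 or more among the 20 genes reversed. No scaling shifted the median of all genes by more than 0.04 on the log2 scale. Subclass sums 2-fold apart numbered 4 in TPM and, in a setting added after the data were seen, 4 in CPM. Depth limits the 12 members with at most 5 counts.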
